A study of Mus musculus with 10 samples.

Results

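Polyamine synthesis genes are described here as 8 genes taken by name from the 57825 genes of the deposited expression table: Odc1, Amd1, Srm, Sms, Oaz1, Oaz2, Azin1 and Sat1. Each name occurs once in the table. The rule names the genes and sets no threshold on their values, but they were chosen with earlier results of these data known. All 8 passed the filter for low expression (0.5 FPKM or more on average), as did 15710 genes in all. FPKM are fragments scaled to the length of the gene and to the fragments of the sample, so levels can be set side by side between genes. Fragments assigned to copies of a gene, described below, limit this. RNA of mouse CD8+ T cells was sequenced after co-culture with 4T1, a mammary carcinoma cell line of Balb/c origin. One group of 5 samples had no added sodium acetate (CD8+4T1) and the other 5 had 5 mM sodium acetate (CD8+4T1+NaAc). Both groups hold T cells enriched by magnetic selection from spleens of female Balb/c mice, aged 7 to 8 weeks as in the other experiments. The cells of both were activated with anti-CD3, anti-CD28 and IL-2 for 12 h, kept with or without acetate for 24 h and co-cultured for 48 h, and the labels give day 3. The 10 samples analysed include no T cells cultured without 4T1, so only acetate differs by design. The sources used here do not say whether replicates came from separate mice or cultures, and the p-values measure the spread between these samples, which may be technical.

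Polyamines (putrescine, spermidine and spermine) are small positively charged molecules that bind nucleic acids and are needed by dividing cells. Ornithine decarboxylase, encoded by Odc1, makes putrescine from ornithine. S-adenosylmethionine decarboxylase (Amd1) supplies the aminopropyl groups that spermidine synthase (Srm) and spermine synthase (Sms) add in turn. Antizymes (Oaz1, Oaz2) bind ornithine decarboxylase and send it to the proteasome, and antizyme inhibitor 1 (Azin1), a relative of the enzyme without its activity, binds antizyme in its place. Spermidine/spermine N1-acetyltransferase (Sat1) acetylates polyamines for breakdown or export. Activated T cells raise polyamine synthesis when they begin to divide, and Odc1 is a textbook target of the transcription factor MYC.

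The promoters of Odc1, Amd1, Oaz1 and Oaz2 are shown because their transcripts moved in opposite directions, Odc1 and Amd1 up and Oaz1 and Oaz2 down. Those of Sms and Sat1, which did not pass the test below, are not printed. RefSeq's promoter table (GRCm38.p6) held a window for 6 of the 8 genes and none for Srm or Azin1. Each window is 180 bases, from 150 before the transcription start to 30 after it, written 5′ to 3′ on the gene's own strand. Capitals mark matches on either strand to the GC box GGGCGG, to the core of the TATA box (TATAA), to the letters CCAAT of the CAAT box, and to the E-box CACGTG, which MYC and MAX bind.
Odc1, chr12:17544723-17544902, plus strand: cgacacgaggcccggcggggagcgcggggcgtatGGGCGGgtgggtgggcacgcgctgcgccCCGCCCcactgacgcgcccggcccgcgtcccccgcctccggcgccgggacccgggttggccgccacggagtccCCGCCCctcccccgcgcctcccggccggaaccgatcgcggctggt
Amd1, chr10:40302159-40302338, minus strand: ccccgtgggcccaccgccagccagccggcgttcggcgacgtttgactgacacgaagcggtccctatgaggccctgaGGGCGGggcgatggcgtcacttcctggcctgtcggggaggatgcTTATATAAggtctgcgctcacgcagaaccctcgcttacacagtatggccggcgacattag
Oaz1, chr10:80826506-80826685, plus strand: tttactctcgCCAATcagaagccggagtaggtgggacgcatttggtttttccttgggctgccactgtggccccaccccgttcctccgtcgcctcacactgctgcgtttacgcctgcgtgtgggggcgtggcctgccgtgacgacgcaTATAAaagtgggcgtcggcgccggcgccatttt
Oaz2, chr9:65676398-65676577, plus strand: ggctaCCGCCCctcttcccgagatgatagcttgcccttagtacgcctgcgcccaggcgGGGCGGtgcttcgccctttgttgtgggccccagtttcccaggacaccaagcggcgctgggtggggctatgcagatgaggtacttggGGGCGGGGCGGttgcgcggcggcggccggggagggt
The Odc1 window holds 3 GC boxes, that of Oaz2 holds 4 (a pair of them overlapping) and that of Amd1 holds 1. Amd1 has the TATA core on both strands, overlapping in a single run, and Oaz1 has 1 TATA core and 1 CAAT box. None of the printed windows contains the E-box. Sites farther upstream, or more than 30 bases into the gene, lie outside the windows and were not looked for. Among all 32851 windows of this length in the table, 31.0% hold the GC box, 15.6% the TATA core, 27.0% the CAAT box and 5.09% the E-box. These matches describe the letters of the windows only. GC boxes occur in the windows of Odc1 and Amd1, which rose, and in that of Oaz2, which fell, while Azin1, which also rose, has no window. Whether these letters bear on the direction of the transcripts was not tested.

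Polyamines themselves act on the translation of some of these transcripts, through sites that an RNA level does not report on. A very short reading frame at the start of the Amd1 transcript stalls ribosomes when polyamines are high, and antizyme is made only when ribosomes shift frame at a stop codon within Oaz1, which polyamines favour. These sites are shown because the values below are RNA levels and not protein. The Amd1 reading frame has its start and stop codons in capitals (6 codons before the stop, RefSeq, GRCm38.p6), and the Oaz1 site has the stop codon TGA in capitals (GENCODE M21 transcripts, GRCm38).
Amd1 upstream reading frame, chr10:40302155-40302175, minus strand: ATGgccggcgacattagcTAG
Oaz1 frameshift site, chr10:80828280-80828309, plus strand: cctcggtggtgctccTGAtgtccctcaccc
The annotation carries the Oaz1 site whole in 1 of 6 coding transcripts, and 3 others write the coding sequence with the first base of TGA left out.

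FPKM multiplied by the listed gene length gave whole fragments, which put the fragments behind the scaling at 16306447 to 17443395 per CD8+4T1 sample and 16503701 to 18853726 per CD8+4T1+NaAc sample. The listed genes held 95.5% to 97.9% of these in CD8+4T1 and 89.8% to 92.1% in CD8+4T1+NaAc. Replicate 1 stood apart in both groups, with 22291 genes above 0 FPKM against 23786 to 24054 in the rest of CD8+4T1, and 20233 against 24681 to 25088 in the rest of CD8+4T1+NaAc. All 9 markers of the labelled cell type were present (Cd8a at 78.6 ± 2.34 FPKM in CD8+4T1 and 76.5 ± 4.37 FPKM in CD8+4T1+NaAc, SD, n = 5), with a summed level of 820 to 926 FPKM in CD8+4T1 and 754 to 822 FPKM in CD8+4T1+NaAc. Of these, 6 were lower by limma, where 19.0% of all genes tested were, and the median log2 fold change of the list was -0.29. With the samples rescaled to an equal sum of FPKM 4 were lower and 2 higher (median -0.11), where 8.80% and 31.2% of all genes were. With voom on the recovered fragments these counts were 5 and 1 (median -0.19), and the shares of all genes 13.4% and 25.4%. The summed level of 12 epithelial and 4T1 markers, mostly Lcn2, Krt8 and Krt18, was 8.18 to 18.1 FPKM in CD8+4T1 and 64.5 to 172.9 FPKM in CD8+4T1+NaAc. Krt8, Krt18 and Lcn2 were higher by 3.33, 2.89 and 3.28 on the log2 scale, while Krt7 and Cldn3 passed the filter only through the acetate group. Without a filter 7 of the 12 were called, all higher, where 8.94% of all genes were higher and 8.07% lower. Of the 12, 7 stayed under 1 FPKM in every sample, among them Epcam at 0.519 ± 0.229 and 0.699 ± 0.179 FPKM and Cdh1, which did not overlap between the groups, at 0.0316 ± 0.0258 and 0.606 ± 0.225 FPKM (SD, n = 5). Epcam and Cldn7 (0.649 ± 0.174 and 0.637 ± 0.111 FPKM) were not called (limma adjusted p = 0.305 and 0.994). Krt19 averaged 0.0586 FPKM in CD8+4T1 and 0.0179 FPKM in CD8+4T1+NaAc and was under the filter. Summed myeloid markers (25.1 to 34.4 against 25.9 to 29.8 FPKM, mostly Cd68) and B cell markers (3.92 to 4.91 against 4.55 to 6.24 FPKM) overlapped between the groups in their sums. Of 3 myeloid markers tested Lyz2 alone was called, higher, where 17.6% of all genes tested were higher. Lyz2 went from 0.536 ± 0.270 to 1.12 ± 0.385 FPKM (SD, n = 5, limma adjusted p = 0.0328), and kept the call with 4 of the 10 samples left out 1 at a time. The part of these markers in the results below was not tested.

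Acetate-treated samples had more Odc1, Amd1 and Azin1 RNA and less Oaz1 and Oaz2 RNA. The transcript of the enzyme that begins the pathway was 1.52 times as high, that of the second decarboxylase 1.26 times and that of the antizyme inhibitor 1.32 times, whereas antizyme 1 stood at 0.723 and antizyme 2 at 0.750 of the CD8+4T1 mean. Srm, Sms and Sat1 did not pass the test. By limma on log2(FPKM + 0.1), CD8+4T1+NaAc minus CD8+4T1, with Benjamini-Hochberg adjustment over all 15710 genes, 5 of these 8 genes were called (adjusted p under 0.05). Over all genes tested this share was 36.5%. Of the 8, 3 were higher, where 17.6% of all genes were, and 2 were lower, where 19.0% were. All 8 genes also averaged 5 FPKM or more, and a fit of only such genes called the same numbers of them. That fit called 3733 of 7800 genes, 1257 higher and 2476 lower, so calls were more frequent, and more often lower, at such levels. The CD8+4T1 and CD8+4T1+NaAc ranges did not overlap for the same 5 genes, and for 26.4% of all genes tested. The median log2 fold change of the 8 genes was -0.10, and of all genes tested -0.02. In bulk RNA fewer cells of a type and less RNA per cell cannot be told apart.

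**Figure D1:**
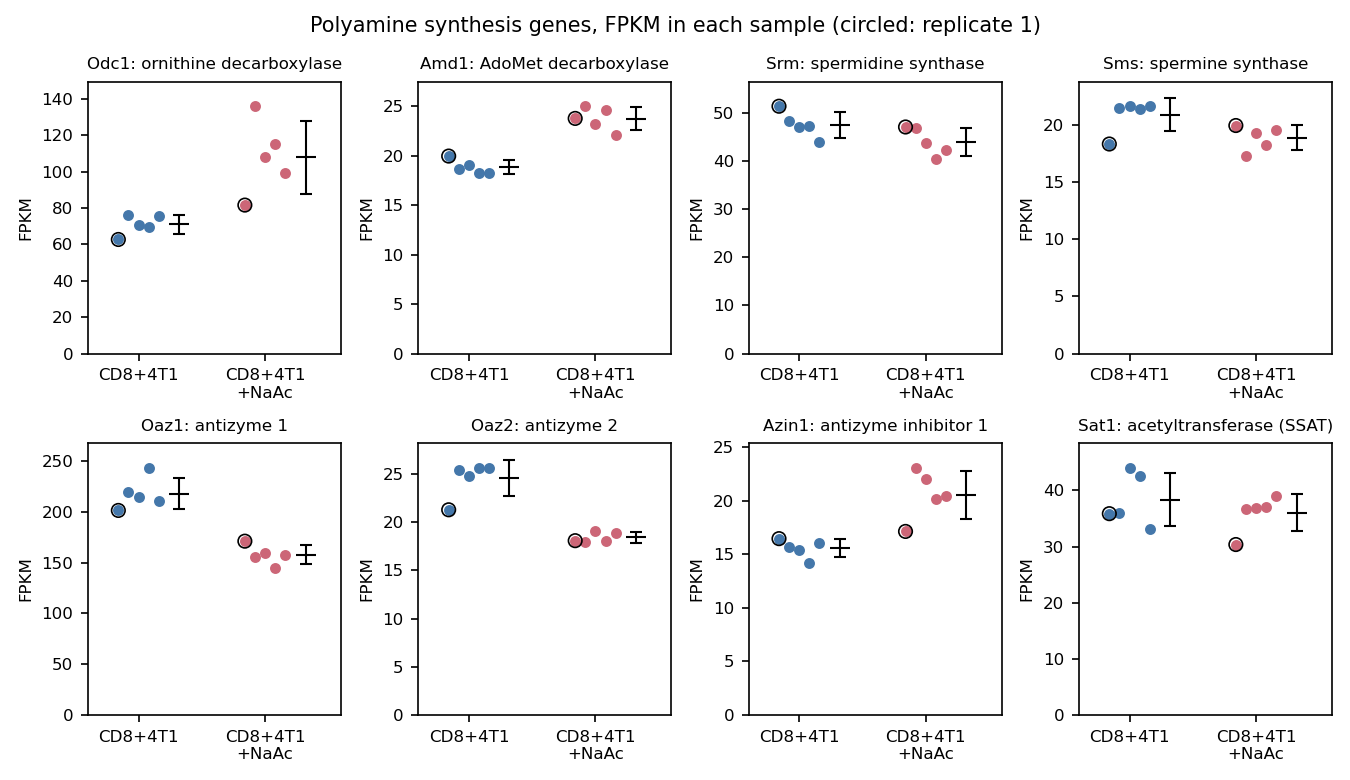
FPKM of the 8 polyamine synthesis genes in each sample, with 5 points per group, each gene on its own axis from 0, the bar at the mean ± SD and replicate 1 circled. Odc1, Amd1 and Azin1 lie higher in every CD8+4T1+NaAc sample than in any CD8+4T1 sample, Oaz1 and Oaz2 lie lower in every one, and Srm, Sms and Sat1 overlap.

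Odc1 (ENSMUSG00000011179, listed on chromosome 12 from 17594795 to 17601506, plus strand, where gene positions are those of the deposited table, which are not GRCm38) was at 62.7, 75.9, 70.8, 69.7 and 75.9 FPKM in CD8+4T1 replicates 1 to 5. In CD8+4T1+NaAc it was at 81.6, 136.0, 108.2, 115.2 and 99.1 FPKM. Every acetate sample was above every control sample, replicate 1 was the lowest of both groups, and the acetate samples were spread more widely. The means were 71.0 ± 5.44 and 108.0 ± 20.1 FPKM (SD, n = 5), or 0.59 in log2 fold change (limma standard error 0.12, adjusted p = 0.00297). The difference in log2 was 0.50 to 0.68 with any 1 sample left out and 0.64 without replicate 1 of both groups. Within CD8+4T1+NaAc, the summed 4T1 markers were at 73.5, 172.9, 101.1, 126.7 and 64.5 FPKM in replicates 1 to 5, so that replicates 2 and 4 led in both Odc1 and these markers. The lowest sample was replicate 1 for Odc1 but replicate 5 for the markers. The part of the markers in the rise of Odc1 was not tested.

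Amd1 (ENSMUSG00000075232, chromosome 10, 40163454 to 40178184, minus strand), which commits S-adenosylmethionine to polyamine synthesis, had 19.9, 18.6, 19.1, 18.3 and 18.2 FPKM in CD8+4T1. Its values in CD8+4T1+NaAc were 23.7, 25.0, 23.2, 24.6 and 22.1 FPKM. Both groups were tight and did not overlap. Amd1 rose from 18.8 ± 0.720 to 23.7 ± 1.13 FPKM (SD, n = 5), or 0.33 in log2 fold change (limma standard error 0.05, adjusted p = 0.000365). Here the sample with the lowest acetate value was replicate 5, which also had the lowest summed 4T1 markers. The part of the markers in the rise of Amd1 was not tested.

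The synthases that use the products of both decarboxylases did not pass the test. Srm (ENSMUSG00000006442, chromosome 4, 148675960 to 148679450, plus strand) had 51.4, 48.3, 47.1, 47.2 and 43.9 FPKM in CD8+4T1 and 47.1, 46.8, 43.7, 40.4 and 42.3 FPKM in CD8+4T1+NaAc. The groups overlapped, and the log2 fold change was -0.11 (95% interval -0.24 to 0.02, limma adjusted p = 0.159), an interval that leaves out a rise of the size seen for Amd1. Sms (ENSMUSG00000071708, chromosome X, 156226851 to 156275283, minus strand) had 18.3, 21.5, 21.6, 21.4 and 21.6 FPKM in CD8+4T1. Its CD8+4T1+NaAc values were 19.9, 17.3, 19.3, 18.3 and 19.5 FPKM. All but 1 of the control samples were above all acetate samples, and the exception was replicate 1. The log2 fold change of Sms was -0.15 (95% interval -0.28 to -0.01, limma adjusted p = 0.0878), and without replicate 1 of CD8+4T1 it was -0.19 (limma adjusted p = 0.0162).

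Antizyme RNA moved against that of ornithine decarboxylase. Oaz1 (ENSMUSG00000035242, chromosome 10, 80662490 to 80665124, plus strand), the most abundant of the 8 transcripts, had 201.4, 220.0, 214.9, 243.4 and 210.6 FPKM in CD8+4T1. In CD8+4T1+NaAc it had 171.1, 155.9, 159.6, 144.4 and 157.7 FPKM. No value of one group reached the other, and replicate 1 was the nearest to the opposite group on both sides. Oaz1 fell from 218.1 ± 15.7 to 157.7 ± 9.54 FPKM (SD, n = 5), or -0.47 in log2 fold change (limma standard error 0.06, adjusted p = 0.000284). With replicate 1 of both groups left out it was -0.52.

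Oaz2 (ENSMUSG00000040652, chromosome 9, 65575283 to 65597582, plus strand), a second antizyme, had 21.3, 25.4, 24.8, 25.6 and 25.6 FPKM in CD8+4T1 and 18.1, 17.95, 19.1, 18.1 and 18.9 FPKM in CD8+4T1+NaAc. The acetate samples lay within about a single FPKM of each other, and replicate 1 of CD8+4T1 was set below the rest of its group. The means of 24.5 ± 1.85 and 18.4 ± 0.528 FPKM (SD, n = 5) gave -0.41 in log2 fold change (limma standard error 0.06, adjusted p = 0.000333), and -0.45 without replicate 1 of both groups. Oaz3, the antizyme of male germ cells, had at most 0.154 FPKM in any sample and was not tested.

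Azin1 (ENSMUSG00000037458, chromosome 15, 38487671 to 38519510, minus strand) had 16.5, 15.7, 15.4, 14.2 and 16.02 FPKM in CD8+4T1. In CD8+4T1+NaAc it had 17.1, 23.1, 22.02, 20.1 and 20.4 FPKM. The groups came close only at replicate 1, the highest control sample and the lowest acetate sample. Azin1 rose from 15.5 ± 0.843 to 20.5 ± 2.26 FPKM (SD, n = 5), or 0.39 in log2 fold change (limma standard error 0.08, adjusted p = 0.00258), and 0.48 without replicate 1 of both groups. The inhibitor of antizyme thus moved in the direction of Odc1 and opposite to both antizymes.

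Sat1 (ENSMUSG00000025283, chromosome X, 153996128 to 153999445, minus strand), the acetylating enzyme, had 35.9, 36.0, 44.0, 42.5 and 33.1 FPKM in CD8+4T1 and 30.4, 36.7, 36.9, 37.1 and 38.9 FPKM in CD8+4T1+NaAc. The control samples spanned nearly the whole range of both groups. The means were 38.3 ± 4.72 and 36.0 ± 3.28 FPKM (SD, n = 5), and the log2 fold change was -0.09 (95% interval -0.29 to 0.12, limma adjusted p = 0.509). Replicate 1 was the lowest acetate sample.

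The direction of the 5 called genes was the same under every scaling of the samples tried, but their size was not. Rescaling the samples to an equal sum of FPKM moved the median over all genes tested from -0.02 to 0.16 in log2 fold change, and scaling them to the T cell markers moved it to 0.23. The share of called genes that were higher went from 48.1% to 78.0% and 86.2%, and to 65.5% with voom on the recovered fragments and 33.7% among genes averaging 5 FPKM or more. Under the total and the T cell marker scaling, Odc1 was at 0.77 and 0.84, Amd1 at 0.51 and 0.58, and Azin1 at 0.57 and 0.65. Oaz1 was at -0.29 and -0.21, and Oaz2 at -0.23 and -0.16. All 5 kept an adjusted p under 0.05 in limma. Srm, Sms and Sat1 had positive values under both, between 0.03 and 0.17, without passing the test, so that no direction can be given for them.

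**Figure D2:**
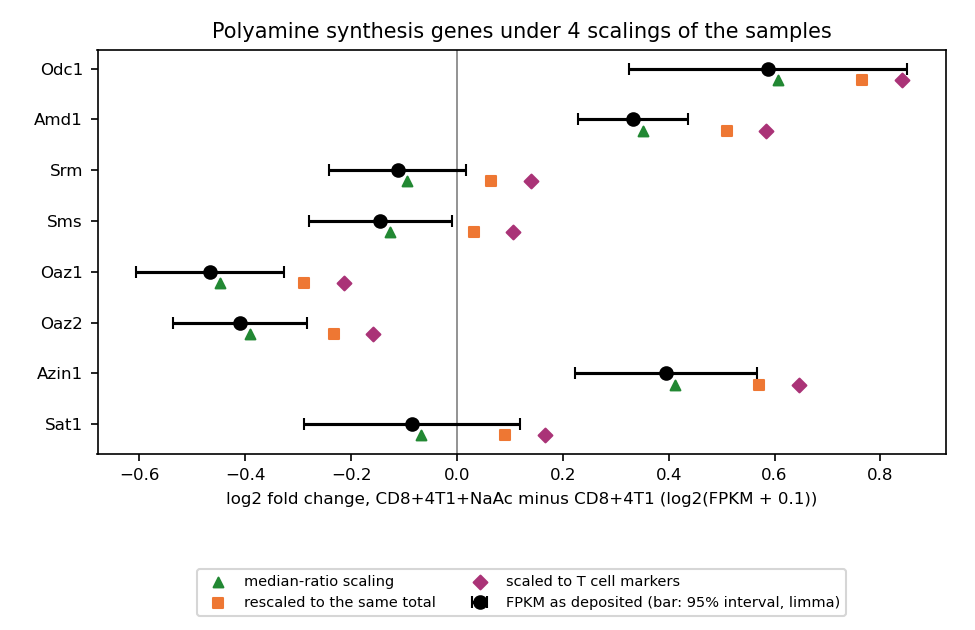
Log2 fold change of each gene, CD8+4T1+NaAc minus CD8+4T1, on log2(FPKM + 0.1), as black points with the 95% interval of limma and, below each, the value under 3 other scalings of the samples. Odc1, Amd1 and Azin1 stay right of 0 and Oaz1 and Oaz2 left of 0 under all 4 scalings, while Srm, Sms and Sat1 cross 0 under 2 of them.

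A ratio of 2 genes within a sample does not depend on how that sample was scaled. The ratio of Odc1 to Oaz1 was 0.312, 0.345, 0.330, 0.287 and 0.361 in CD8+4T1. In CD8+4T1+NaAc it was 0.477, 0.873, 0.679, 0.798 and 0.629. Ornithine decarboxylase RNA stood at 0.361 of antizyme 1 RNA or less in the control samples and above that in every acetate sample, with replicate 1 the lowest of them. The difference in the log2 ratio was 1.05 (standard error 0.16, a factor of 2.08) and the exact permutation p, two-sided, was 0.00794, the smallest that 5 samples against 5 allow. The adjusted value over the 3 ratios was also 0.00794.

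The ratio of Azin1 to Oaz1, the inhibitor against its target, ran from 0.0588 to 0.0822 in CD8+4T1 and from 0.101 to 0.149 in CD8+4T1+NaAc. The difference in log2 was 0.86 (standard error 0.13, a factor of 1.82). For Odc1 to Sat1, the enzyme that begins synthesis against the acetylating enzyme, the ratio ran from 1.61 to 2.29 and from 2.54 to 3.695. That difference was 0.67 (standard error 0.14, a factor of 1.59). Neither ratio overlapped between the groups, and both had the same exact permutation p of 0.00794, before and after adjustment. All 3 ratios share genes and samples with the single-gene results above and are a restatement of them free of scaling. Odc1 and Azin1 were higher and Oaz1 lower in every acetate sample than in any control sample, so the ratios to Oaz1 had to separate. Their permutation p was thus fixed by the single-gene ranges and adds no support.

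**Figure D3:**
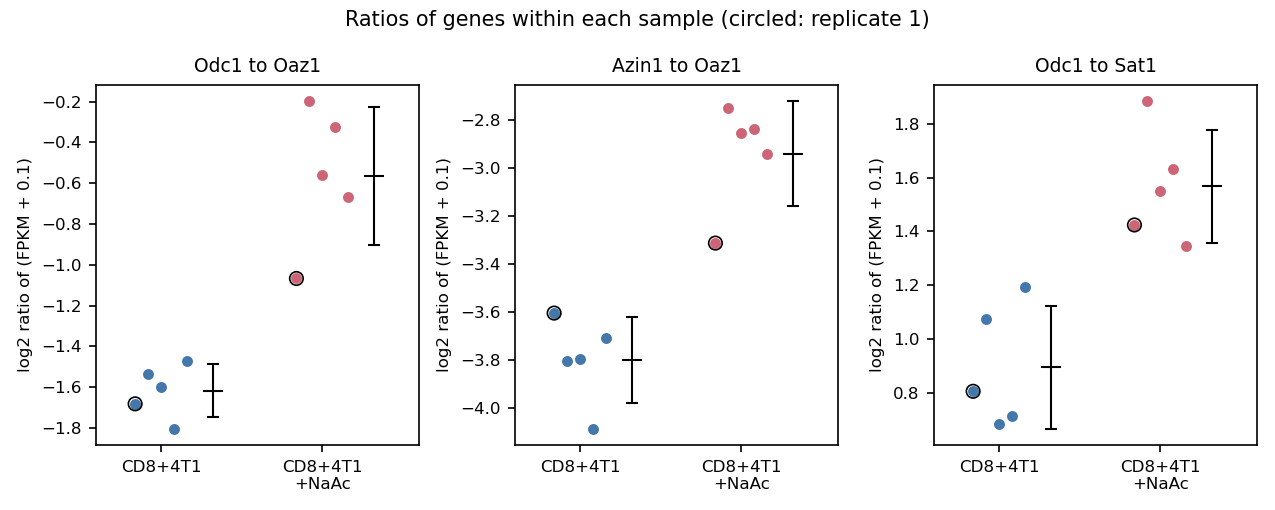
Log2 ratio of Odc1 to Oaz1, Azin1 to Oaz1 and Odc1 to Sat1 within each sample (FPKM + 0.1), with 5 points per group, the bar at the mean ± SD and replicate 1 circled. Every CD8+4T1+NaAc sample lies above every CD8+4T1 sample in all 3 panels, and replicate 1 of CD8+4T1+NaAc is nearest to the control samples in the panels with Oaz1.

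The order of the levels changed at its lower end. In CD8+4T1 the means descended from Oaz1 through Odc1, Srm, Sat1, Oaz2, Sms and Amd1 to Azin1, at 218.1 to 15.5 FPKM. Neighbours in that order did not separate between Srm and Sat1, Oaz2 and Sms, or Sms and Amd1, whose sample ranges overlapped. In CD8+4T1+NaAc the first 4 places were the same and Srm no longer overlapped Sat1. Amd1 and Azin1 then came before Sms and Oaz2, with each of these 4 overlapping the next. Oaz2 went from the fifth place to the last in these values. They leave out fragments assigned to copies, which held 15.96% to 22.7% of the fragments of Sms and its copies and 9.39% to 15.7% for Amd1. The order below Sat1 is therefore uncertain in both groups.

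Several of these genes have processed pseudogenes or near-identical copies to which the counting could assign their fragments. Entries that the table annotates with the protein of Odc1 or names after it (10, of which Rps7-ps2 is named for another gene) held 22.3% to 27.8% of the fragments of Odc1 and these copies, with a mean of 26.5% in CD8+4T1 and 23.4% in CD8+4T1+NaAc. The values of Odc1 are uncertain to that extent. The pseudogene Gm7993 (ENSMUSG00000107092), the main one, rose from 58.0 ± 3.79 to 75.3 ± 13.3 FPKM (SD, n = 5). Its log2 fold change was 0.36 (limma adjusted p = 0.0267), below the 0.59 of Odc1, and its groups overlapped. Summed with all its copies, Odc1 had a log2 fold change of 0.53 (limma adjusted p = 0.00474), a sum chosen after the data were seen. Odc1 also overlaps the listed position of a small RNA gene, Gm22748, on the same strand, which had a mean of 5.64 FPKM.

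Copies of Amd1 held 9.39% to 15.7% and copies of Sms 15.96% to 22.7% of the respective fragments. Amd2, a near-identical expressed copy, had 2.53 ± 0.284 and 2.96 ± 0.496 FPKM (SD, n = 5, limma adjusted p = 0.211), and Sms-ps had 28.3 ± 1.80 and 24.8 ± 2.91 FPKM (limma adjusted p = 0.0903). With the copies added, Amd1 was at 0.32 on the log2 scale and Sms at -0.15, and Sms then passed the test (limma adjusted p = 0.0400). The share was at most 3.16% for Oaz2, 1.18% for Oaz1 and 0.321% for Srm, and no copies were listed for Sat1 or Azin1. Azin1 overlaps Gm49077 on the opposite strand (at most 0.684 FPKM on average), and since the strand setting of the counting is not given in the sources used here, reads of the pair cannot be told apart. Between 913 and 10261 fragments lay behind each value of the 8 genes.

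Other genes of the pathway were described as 6 lists with 40 genes, of which 30 passed the filter. Of these 11 had an adjusted p under 0.05 by limma, 5 higher and 6 lower, which is close to the 36.5% of all genes tested. Under the total scaling 14 were higher and 3 lower, where 31.2% and 8.80% of all genes tested were. Under the T cell marker scaling 18 were higher and 1 lower, where 37.0% and 5.90% of all genes tested were. The median log2 fold change of the 30 genes was 0.05.

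Among the other enzymes and regulators of polyamines, 2 of 4 tested were higher, where 17.6% of all genes were, and 0 were lower. Under the total and the T cell marker scalings all 4 were higher, where 31.2% and 37.0% of all genes were. Azin2, a second antizyme inhibitor, had 3.94, 3.60, 3.66, 4.34 and 3.33 FPKM in CD8+4T1 and 7.37, 5.88, 5.35, 6.38 and 4.61 FPKM in CD8+4T1+NaAc. The groups did not overlap. Replicate 1 was the highest of the acetate samples, where replicate 2 had the highest summed 4T1 markers. The log2 fold change was 0.62 (limma standard error 0.12, adjusted p = 0.00239), so both antizyme inhibitors rose. Smox, spermine oxidase, which turns spermine back into spermidine, had 49.0 ± 1.99 and 58.9 ± 5.998 FPKM (SD, n = 5), or 0.26 in log2 fold change (limma adjusted p = 0.0147) with groups that overlapped. Paox, the oxidase of acetylated polyamines, was at 0.17 (limma adjusted p = 0.232), and was called under the total scaling (0.34, limma adjusted p = 0.0299) and the T cell marker scaling (0.41, limma adjusted p = 0.0153).

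Of the genes that supply ornithine and arginine, 0 of 5 tested were called by limma on the FPKM as deposited, where 36.5% of all genes were, and 0 had an unadjusted p under 0.05. Slc7a1, the arginine transporter, had 34.0 ± 2.37 and 31.2 ± 1.51 FPKM (SD, n = 5, limma adjusted p = 0.127). Voom on the recovered fragments also called 0 of the 5. Aldh18a1, which begins ornithine synthesis from glutamate, was called under the total and T cell marker scalings (0.24 and 0.32). Otc was listed at 0 in all samples. Of 3 transport genes tested 1 was called higher, where 17.6% of all genes were, and 0 lower. Atp13a2, which exports polyamines from lysosomes, was higher, from 13.8 ± 0.727 to 16.7 ± 1.07 FPKM (SD, n = 5, log2 fold change 0.28, limma adjusted p = 0.00360), and Atp13a3 was at 0.00 on the log2 scale (95% interval -0.14 to 0.14), with a call under the T cell marker scaling (0.25, limma adjusted p = 0.0310).

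Spermidine is the source of hypusine, a modified residue that only the translation factor eIF5A carries. Eif5a had 441.4, 451.1, 449.3, 463.7 and 466.2 FPKM in CD8+4T1 and 349.8, 383.8, 398.4, 367.5 and 384.4 FPKM in CD8+4T1+NaAc. It fell without overlap, by 0.27 on the log2 scale (limma adjusted p = 0.00160), but the call was lost under the total scaling (-0.09, limma adjusted p = 0.121) and under the T cell marker scaling (-0.02, limma adjusted p = 0.825). Dhps and Dohh, the enzymes that make hypusine, had log2 fold changes of 0.16 and -0.11 and did not pass the test (limma adjusted p = 0.322 and 0.395). Dhps was called without replicate 1 of CD8+4T1+NaAc (0.26, limma adjusted p = 0.0144) and under the total (0.33) and T cell marker scalings (0.41).

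The making of spermidine and spermine releases methylthioadenosine, which is salvaged to methionine. In that list of 7 genes, 1 was higher and 2 lower, where 17.6% and 19.0% of all genes were. The counts were 3 and 1 under the total scaling (31.2% and 8.80% of all genes), 5 and 1 under the T cell marker scaling (37.0% and 5.90%), and 3 and 1 with voom (25.4% and 13.4%). Mtap, the phosphorylase that begins the salvage, had 18.6, 16.8, 16.4, 15.5 and 16.5 FPKM in CD8+4T1 and 22.6, 31.6, 24.8, 24.02 and 23.5 FPKM in CD8+4T1+NaAc. No sample of one group reached the other, and replicate 2, with the highest summed 4T1 markers, was also the highest for Mtap. The lowest acetate sample was replicate 1 for Mtap but replicate 5 for the markers, and their part was not tested. The log2 fold change was 0.59 (limma standard error 0.09, adjusted p = 0.000534). Enoph1, an enzyme of a later step, fell from 10.5 ± 0.472 to 6.87 ± 0.893 FPKM (SD, n = 5), by 0.61 on the log2 scale (limma adjusted p = 0.000455). The value of Apip, which acts just before Enoph1, was -0.18 (limma adjusted p = 0.0337), a call lost in 12 alternatives of the same sign and also under the T cell marker scaling, where the value was 0.070 (limma adjusted p = 0.428). Mat2a, which makes S-adenosylmethionine, was at 0.12 (limma adjusted p = 0.115), and was called under the total scaling (0.29, limma adjusted p = 0.00202) and the T cell marker scaling (0.37, limma adjusted p = 0.00302).

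In the MYC and MAX network, 1 of 7 genes tested was higher and 3 were lower, where 17.6% and 19.0% of all genes were. This balance was 4 and 2 under the total scaling (31.2% and 8.80% of all genes), 4 and 0 under the T cell marker scaling (37.0% and 5.90%), and 3 and 3 with voom (25.4% and 13.4%). Myc itself, at 72.4 ± 6.28 and 80.8 ± 6.37 FPKM (SD, n = 5), did not pass the test (log2 fold change 0.16, limma adjusted p = 0.112) but was called in 5 of the 13 alternatives other than leaving out a single sample. Among these were the total scaling (0.34, limma adjusted p = 0.00848) and the T cell marker scaling (0.41, limma adjusted p = 0.00315). Max, the shared partner, had 37.1 ± 2.17 and 30.0 ± 1.44 FPKM, a log2 fold change of -0.31 (limma adjusted p = 0.00124), with no call under the total scaling (-0.13, limma adjusted p = 0.0858) or the T cell marker scaling (-0.06, limma adjusted p = 0.497). Mxd1 (-0.44) and Mxi1 (-0.43), which pair with MAX as repressors, were lower (limma adjusted p = 0.00142 and 0.00226), and lost the call under the T cell marker scaling (-0.19 and -0.18). Mxd3, of the same family, was higher, from 3.34 ± 0.506 to 4.47 ± 0.446 FPKM (SD, n = 5, log2 fold change 0.41, limma adjusted p = 0.0143).

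**Figure D4:**
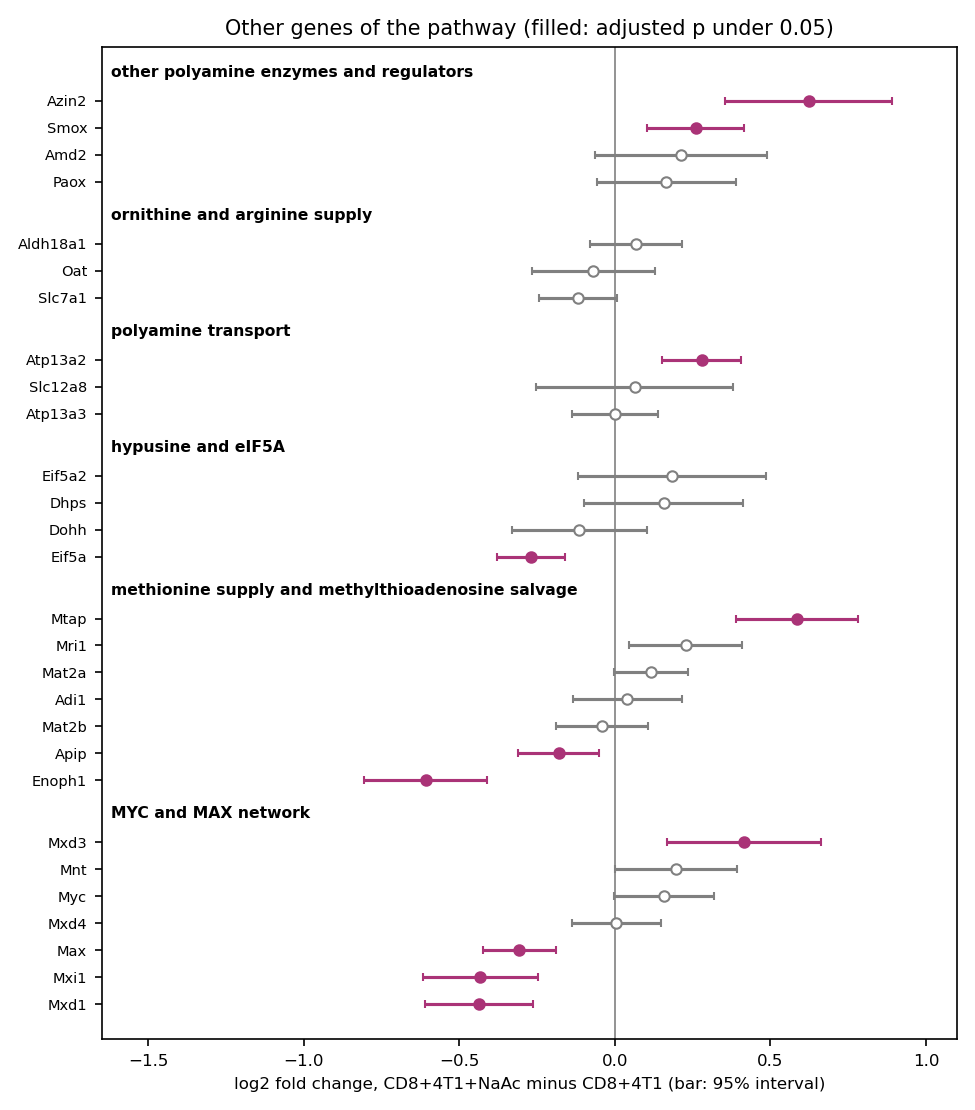
Log2 fold change (CD8+4T1+NaAc minus CD8+4T1, log2(FPKM + 0.1)) with the 95% interval of limma for the other pathway genes reported, ordered within each list and filled where the adjusted p was under 0.05. Azin2 and Mtap lie farthest to the right and Enoph1 farthest to the left of the filled points, and none of the ornithine and arginine supply genes drawn is filled.

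Among 7052 protein-coding genes averaging 5 FPKM or more, the genes whose log2 level ran closest to that of Odc1 over the 10 samples were Slfn9, Txndc5 and Prdx4, with root-mean-square distances of 0.064, 0.074 and 0.075 on the log2 scale, where the median gene was at 0.40. Slfn9, a Schlafen family gene, had 4.41 ± 0.250 and 6.97 ± 1.07 FPKM (SD, n = 5), Txndc5, a disulfide isomerase of the endoplasmic reticulum, 10.6 ± 0.419 and 17.2 ± 3.70 FPKM, and Prdx4, a peroxiredoxin of the same compartment, 7.01 ± 0.517 and 10.1 ± 2.02 FPKM. Those closest to Sat1 were Mtarc2, Mvd and Evl, at 0.073, 0.085 and 0.086, where the median gene was at 0.21. The distances describe these samples, which share the group difference, and carry no test.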

How the data were processed

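The members and the gene lists were chosen with earlier results of these data known. Libraries were made from RNA of purified CD8+ T cells with a NEBNext Ultra kit and sequenced on a NovaSeq instrument. The authors deposited FPKM per gene and sample, not pooled. The submitters' processing notes name fastp, HISAT2 2.0.5, StringTie 1.3.3b and featureCounts 1.5.0-p3, and the study compared its groups with DESeq2. The genome build and strand setting are not given in the sources used here. Listed gene positions are not those of GRCm38 and are printed as deposited.

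FPKM are not counts, so limma 3.58.1 (R 4.3.3, trend and robust moderation) was run on log2(FPKM + 0.1) for the 15710 of 57825 genes averaging at least 0.5 FPKM, with the group as the only term and Benjamini-Hochberg adjustment over all. Genes with an adjusted p under 0.05 were called. Folds on this scale understate low genes. Fragments recovered from FPKM and gene length were whole within 0.1 for 100% of values in every sample. On them voom called 6090 genes, against 5742 in limma. The 3 ratios had exact permutation tests. Named are the 8 genes, called genes of the pathway lists, pseudogenes named after a member, and the 3 genes closest to Odc1 and to Sat1. Other genes of the lists are named as examples that did not pass, Gm7993 for its annotation, Gm22748 and Gm49077 for their positions, and marker genes, chosen after their values were seen. The counts over the lists include 2 genes whose own values are not reported here. The scripts were tested on simulated data. Alternatives were other pseudocounts (1 and 0.01), no filter or a mean of at least 5 FPKM, 3 scalings, limma without moderation by trend, sample weights, voom, a replicate block, samples left out and, added after the data were seen, sums with pseudogenes. Figures were drawn with matplotlib 3.10.9.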

Additional observations from a re-analysis of the deposited data

Results flagged for a closer look

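Samples far from the rest of their group were looked for by the distance of the highest or lowest value to its neighbour, as a share of the whole range of the group, with 0.71 as the limit. This was met in 6 of 46 groups of 5 values, and about 2.3 would be met by chance. Replicate 1 of CD8+4T1 was the lowest of its group for Sms (a gap of 0.930 of the range) and Oaz2 (0.821) on the log2 scale. It also had the fewest genes above 0 FPKM (0.848). Replicate 1 of CD8+4T1+NaAc was the lowest of its group for Sat1 (0.765) and had the fewest genes above 0 FPKM (0.916). Replicate 2 of CD8+4T1+NaAc was the highest of its group for Mtap (0.719), and it had the highest summed 4T1 markers. The cause was not tested for any of these.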

How the results depend on the processing

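Odc1, Amd1, Azin1, Oaz1 and Oaz2 kept their direction and an adjusted p under 0.05 by limma in all 23 alternatives run for each. With each sample left out in turn, 5 to 6 of the 8 genes and 10 to 14 of the 30 to 31 other pathway genes that passed the filter were called. The calls over all genes in these fits ran from 4924 of 15702 to 6930 of 15626, the latter without replicate 1 of CD8+4T1+NaAc. Sms was also called with sample weights (-0.18, limma adjusted p = 0.0114), without replicate 1 of CD8+4T1 (-0.19) and without replicate 1 of both groups (-0.21, limma adjusted p = 0.00539). Of the pathway genes, 17 were called with equal sums of FPKM, where 6304 of 15756 genes in all were. With the samples scaled to T cell markers 19 were called, where 6767 of 15769 genes in all were. Under the T cell marker scaling the log2 fold change of Apip was 0.070. Apip also lost its call without replicate 3, 4 or 5 of CD8+4T1 and without replicate 2, 4 or 5 of CD8+4T1+NaAc (-0.21 to -0.15 over all samples left out), and the cause was not tested. Over all genes, 7594 were called with sample weights, and 3733 of 7800 among genes averaging 5 FPKM or more. The replicate numbers run from 1 to 5 in both groups, but after removal of the group means the samples with the same number correlated at -0.03 to 0.07 across genes, and 2 of 5 samples correlated best with their own number, so the numbers were not taken to pair the samples. With the replicate number as a block, 5 of the 8 genes, 12 of the 30 pathway genes and 5399 genes in all were called, and among the genes named as called Apip alone lost its call. Myc gained a call, and the MYC and MAX list had 3 higher and 3 lower under the block, where 2551 and 2848 of all 15710 genes were. The ratios kept their differences under the block (1.05 for Odc1 to Oaz1, 0.86 for Azin1 to Oaz1 and 0.67 for Odc1 to Sat1), with an exact permutation p of 0.0625, the smallest that 32 sign changes of 5 pairs allow, so this p says nothing on stability. Between 913 and 10261 fragments lay behind each value of the 8 genes, and the share of counting error in the spread between samples was not tested.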
